A study of Saccharomyces cerevisiae with 4 samples.

Results

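Messenger RNA of 10 yeast genes was followed, those for the synthesis of methionine, cysteine and S-adenosylmethionine and for the uptake of methionine and S-methylmethionine. The genes were taken by name from a list that was chosen with earlier results of these data known. All 10 were found among the 6706 reading frames of each deposited table: MET17 (YLR303W), MET2 (YNL277W), MET6 (YER091C), CYS4 (YGR155W), CYS3 (YAL012W), STR3 (YGL184C), SAM1 (YLR180W), SAM2 (YDR502C), MUP1 (YGR055W) and MMP1 (YLL061W). Of the 10 genes, 2 were lower in the strain without tRNA genes on chromosome III, MET6 by 1.71-fold and MET17 by 1.49-fold, and the other 8 did not pass the test. Among all reading frames tested, 0.693% passed as lower. Neither MET6 nor MET17 passed when either library of that strain was left out.

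The series set a strain lacking the tRNA genes (tDNAs) of chromosome III against wild type, with 2 libraries per strain that the labels call biological replicates. Both strains are MATa haploids of the W-303 background and carry ade2-1, trp1-1 and ura3-1. In addition the wild type (JRY2334) carries can1-100, his3-11,15 and a mutant allele of LEU2. In the tDNA-less strain (JKY690) the sites t0, t1 and t3 to t7 are listed as deleted, LEU2 stands in place of t8 and t9, and HIS3 is inserted at a site written T1+T7. So the listed genotypes differ in LEU2, HIS3 and CAN1 as well as in the tRNA genes, and these differences cannot be told apart here. The CAN1 difference rests only on JKY690 listing no can1 allele. Each group is 1 strain, so the p-values measure the spread between libraries of 1 line each, and neither genotype lists an allele of a sulfur gene. Cells were taken in early log phase in YPD, a rich medium that supplies amino acids. The a-cell genes MFA1, MFA2, STE2, STE6 and BAR1 summed to 953.8 to 1008 CPM (counts scaled to library size) per library, and the alpha-cell genes MF(ALPHA)1, MF(ALPHA)2, STE3 and SAG1 to 24.59 to 29.83 CPM, most of it SAG1. HIS3 read 12.41 and 8.503 CPM in wild type and 403.5 and 461.6 CPM in the tDNA-less strain, which fits the markers in the genotypes. LEU2 read 110.4 and 135.6 CPM in wild type and 59.49 and 54.31 CPM in the tDNA-less strain, and the counts do not separate a mutant allele from an intact one.

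Depth was 12.48 M to 19.76 M estimated counts per library, and 30.63% to 45.09% of them were assigned to 4 reading frames, ATG7, LTO1, MSK1 and YSH1. Whether those counts stem from the messenger RNA of these 4 genes was not tested. The 10 genes held 28950 to 69776 estimated counts per library. That was 0.475% and 0.509% of the counts outside those 4 reading frames in wild type, and 0.407% and 0.411% in the tDNA-less strain. All 10 genes passed the filter on low counts.

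In budding yeast, sulfide made from sulfate is joined to O-acetylhomoserine to give homocysteine. Homocysteine is either methylated to methionine or passed through cystathionine to cysteine. Transsulfuration runs in both directions between homocysteine and cysteine, with different enzymes for each direction. Methionine is activated to S-adenosylmethionine (SAM), the methyl donor of the cell, whose product returns to homocysteine. The transcription of many of these genes is known to depend on the activator Met4, which is brought to DNA by Cbf1 and by Met31 or Met32 and is restrained by the ubiquitin ligase subunit Met30 when sulfur amino acids are plentiful. Gcn4, the activator of the general amino acid response, acts on part of them.

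The upstream sequences of 4 genes, picked by their RNA values, are shown with their matches to the motifs that these factors are known to bind. They are MET6 and MET17, whose RNA differed between the strains, and STR3 and SAM1, which had the largest fitted differences among the other 8. Each sequence is written from 5′ to 3′ on the strand of its gene, from the R64 reference assembly (sacCer3), which is not W-303. Capitals mark CACGTG, the core bound by Cbf1, AAACTGTG, the core bound by Met31 and Met32, and TGACTC, the core bound by Gcn4, each on either strand. Each stretch spans the outermost matches within 500 bases of the start codon, with up to 10 bases on either side. MET6 is from chrV:342457-342667 (minus strand), MET17 from chrXII:732232-732338 (plus strand), STR3 from chrVII:156376-156411 (minus strand) and SAM1 from chrXII:514975-515002 (plus strand).
MET6: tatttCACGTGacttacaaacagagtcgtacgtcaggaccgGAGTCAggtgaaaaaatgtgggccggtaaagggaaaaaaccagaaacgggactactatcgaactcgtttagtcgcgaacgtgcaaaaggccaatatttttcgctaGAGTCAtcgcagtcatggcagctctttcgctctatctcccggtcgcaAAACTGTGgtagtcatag
MET17: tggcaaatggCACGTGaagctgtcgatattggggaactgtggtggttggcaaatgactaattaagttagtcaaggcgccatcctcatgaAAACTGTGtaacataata
STR3: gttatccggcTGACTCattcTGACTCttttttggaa
SAM1: tttcacaggaAAACTGTGgtggcgccct

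MET6 held all 3 motifs, with CACGTG first and AAACTGTG last, and with a pair of Gcn4 cores between them on the other strand (GAGTCA). MET17 held CACGTG with its first base 300 bases before the start codon and AAACTGTG at 221 bases. The MET17 stretch lies within YLR302C, a reading frame on the other strand that overlaps the first 12 bases of MET17 and read 0 or 1 estimated counts per library. STR3 held a pair of Gcn4 cores, at 389 and 379 bases, and neither of the other motifs. SAM1 held AAACTGTG alone, at 277 bases.

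Among all 10 genes, CACGTG was found before 6, AAACTGTG before 7 and TGACTC before 3. Over the 6008 reading frames with 500 bases of upstream sequence, the shares were 6.21%, 2.7% and 12.63%. CYS4, SAM2, MET6 and MET17 held both CACGTG and AAACTGTG, and no match overlapped another in the upstream regions of the 10 genes. CYS4 and SAM2, whose RNA did not pass the test, held the same pair of motifs as MET17. In the shorter window from 250 bases before to 50 bases after the start, CACGTG was left in CYS3 alone, AAACTGTG in MET17, CYS4 and MMP1, and TGACTC in MUP1 and in CYS3, where the match begins within the start codon. The shares over 6009 reading frames in that window were 2.9%, 1.56% and 7.97%. A match is a description of letters and not a measured site. Both the 10 genes and the motifs were chosen with earlier results of these data known.

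**Figure D1:**
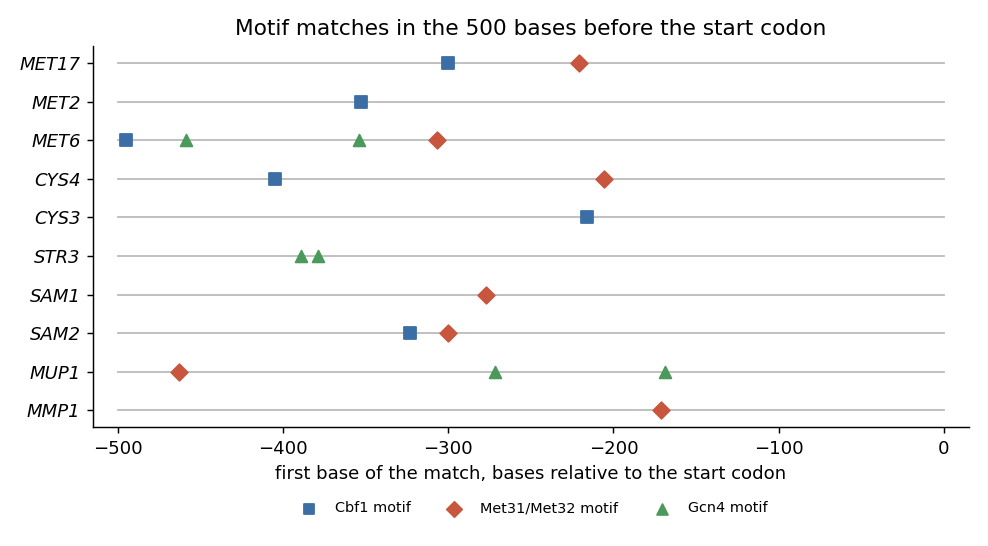
Matches to the Cbf1 (CACGTG), Met31/Met32 (AAACTGTG) and Gcn4 (TGACTC) motifs on either strand in the 500 bases before the start codon of each of the 10 genes. The x axis gives the first base of the match relative to the start codon, and the Cbf1 motif of MET17 stands at 300 bases and its Met31/Met32 motif at 221 bases upstream.

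The coding regions lie on chromosomes I (CYS3), IV (SAM2), V (MET6), VII (CYS4, STR3 and MUP1), XII (MET17, SAM1 and MMP1) and XIV (MET2), each as 1 coding exon, so none of the 10 is on the chromosome that was changed. MET6 runs from 339864 to 342167 on the minus strand of chromosome V. MET17 runs from 732542 to 733876 on the plus strand of chromosome XII, with an annotated tRNA gene 351 bases before it and another 925 bases after it. MMP1 and MHT1, the S-methylmethionine permease and methyltransferase, are divergent neighbours with 342 bases between them.

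The level of these genes per unit of length, as deposited TPM (transcript abundance scaled to a fixed library total), ran from CYS3 at the top to STR3 at the bottom in all 4 libraries. That total includes the 4 reading frames with most counts, whose share of the counts differed between libraries. A TPM level therefore also depends on that share. CYS3, cystathionine gamma-lyase, the last step to cysteine, had 470.7 and 578.2 TPM in wild type and 419.5 and 506.8 TPM in the tDNA-less strain, and stood at percentile 95.7 to 96.3 of all reading frames in the 4 libraries. SAM1 and CYS4 followed, at 346.1 ± 34.5 and 341.6 ± 3.32 TPM in wild type (SD, n = 2), and their ranges overlapped. MET17, MET6 and SAM2 came next at 184.9 ± 25.6, 168.3 ± 20.6 and 153.2 ± 19.1 TPM, and neighbours in that order overlapped in wild type. MUP1 had 49.67 ± 5.72 TPM, MMP1 11.61 ± 2.16, MET2 9.866 ± 0.07 and STR3 2.622 ± 1.25, and none of these 4 overlapped its neighbour in the order.

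SAM1 stood above CYS4 in wild-type replicate 2 and below it in the other 3 libraries, and the order differed between the strains at 1 further place. SAM2 ranked 6 of the 10 in both wild-type libraries and 4 in both tDNA-less libraries, while MET17 and MET6 ranked 4 and 5 in wild type and 5 and 6 in the tDNA-less strain. In the tDNA-less strain SAM2 had 116.1 and 129.8 TPM, MET17 108.7 and 116.3 TPM, and MET6 83.11 and 95.91 TPM, so that the ranges of MET6 and SAM2 no longer overlapped while those of MET17 and SAM2 did. Ratios within a library do not depend on the scaling between libraries. The ratio of CYS3 to MET6 was 3.06 and 3.16 in wild type and 5.05 and 5.28 in the tDNA-less strain. The ratio of CYS3 to MET17 was 2.82 and 2.85 in wild type and 3.86 and 4.36 in the tDNA-less strain. A ratio that differs between the strains shows unequal change of its 2 genes, and with 2 libraries per strain an exact two-sided permutation test cannot give a p below 0.333.

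The strains were compared on CPM. A gene was called at an adjusted p under 0.05 in edgeR's quasi-likelihood test over all 6205 reading frames tested. Of these, 1.5% were called, 0.693% as lower and 0.806% as higher. Among the 10 genes 2 were called lower and 0 higher. In 6 of the 10 both tDNA-less libraries lay below both wild-type libraries, as for 20.8% of all reading frames, and in 1 both lay above, as for 22% of all. At an unadjusted p under 0.05 stood 5 of the 10, all lower and 0 higher, against 11.8% of all reading frames, 5.64% lower and 6.19% higher. A log2 fold change below 0 was fitted for 8 of the 10 and for 49.4% of all reading frames. The median log2 fold change was -0.19 over the 10 genes and 0.003 over all reading frames tested. Because the 10 genes were chosen with earlier results of these data known, these comparisons with all reading frames are not independent evidence. In bulk RNA, less RNA per cell and fewer cells that express a gene cannot be told apart.

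**Figure D2:**
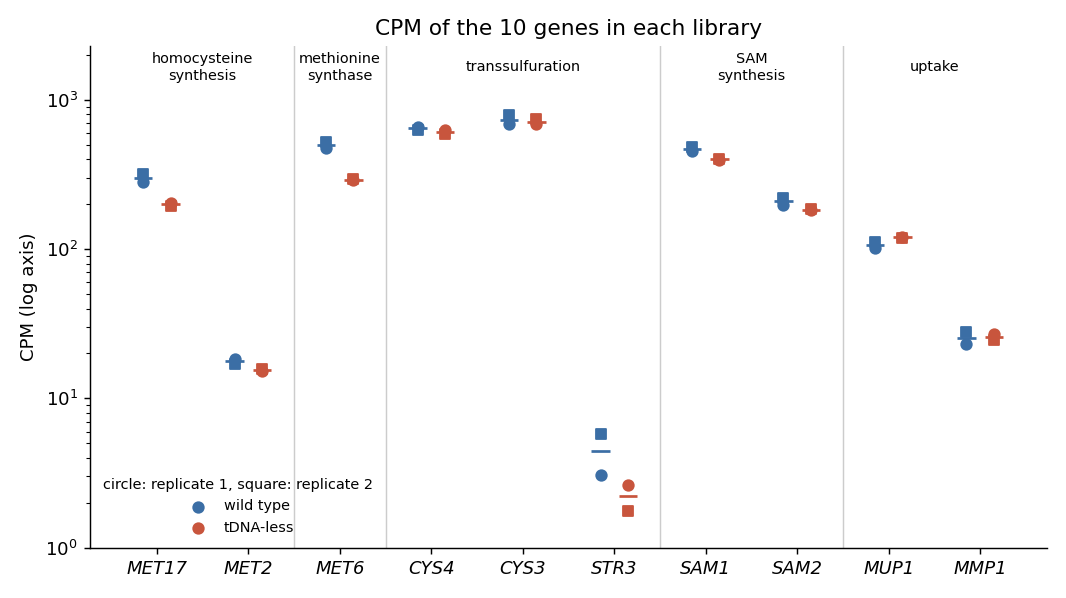
CPM of each gene (y axis, log scale) in the 2 wild-type libraries (blue) and the 2 tDNA-less libraries (red), with a bar at the mean of each strain. Genes stand in the order of their roles, heights are to be compared within a gene only, and MET6 and MET17 show tDNA-less libraries at 289.2 to 295.8 and 195.8 to 204.4 CPM below wild-type libraries at 473.9 to 523.4 and 280.2 to 317.3 CPM.

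MET17 and MET2 make homocysteine. MET17 encodes O-acetylhomoserine sulfhydrylase, which joins sulfide to the carbon chain. It had 280.2 and 317.3 CPM in wild type and 204.4 and 195.8 CPM in the tDNA-less strain. The groups did not overlap, and both tDNA-less libraries were close to each other. MET17 fell 1.49-fold, with means of 298.7 ± 26.2 CPM in wild type and 200.1 ± 6.06 CPM in the tDNA-less strain (SD, n = 2). On the log2 scale this was -0.58 ± 0.09 (SE; adjusted p = 0.0087 in edgeR), and its p stood at rank 51 of all reading frames. MET2 encodes homoserine O-acetyltransferase, which makes the acceptor that MET17 uses. It had 18.49 and 17.01 CPM in wild type and 15.16 and 15.86 CPM in the tDNA-less strain. Its libraries did not overlap either, yet the log2 fold change of -0.19 had a 95% interval from -0.51 to 0.13, and MET2 did not pass (edgeR, adjusted p = 0.66).

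The value of MET2 rests on divided reads. Its estimated count was not whole in any library, while the sum with that of reading frame YNL276C was whole in all 4 (within 0.01), at 266, 449, 224 and 249 counts for wild-type replicates 1 and 2 and tDNA-less replicates 1 and 2. MET2 was given 85.6% and 84.6% of that sum in wild type and 76.7% and 94.1% in the tDNA-less strain. The summed row had 21.57 and 20.09 CPM in wild type and 19.74 and 16.88 CPM in the tDNA-less strain, and its log2 fold change was -0.19 ± 0.14 (adjusted p = 0.654 in edgeR). This sum was formed after the data were seen. The other 9 genes had whole estimated counts in all 4 libraries.

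MET6 had the largest called difference of the 10. It encodes the cobalamin-independent methionine synthase, which moves a methyl group from methyltetrahydrofolate to homocysteine. Its RNA stood at 473.9 and 523.4 CPM in wild type and at 289.2 and 295.8 CPM in the tDNA-less strain. The highest tDNA-less library lay well below the lowest wild-type library. MET6 fell 1.71-fold, its mean being 498.7 ± 35 CPM in wild type and 292.5 ± 4.7 CPM in the tDNA-less strain (SD, n = 2). On the log2 scale this was -0.77 ± 0.08 (SE; adjusted p = 0.0012 in edgeR), rank 23 by p. Its 95% interval ran from -0.95 to -0.59 on the log2 scale, and that of MET17 from -0.77 to -0.39.

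The calls of MET6 and MET17 needed both tDNA-less libraries. Without tDNA-less replicate 1 the log2 fold change was -0.758 for MET6 and -0.614 for MET17, and without tDNA-less replicate 2 it was -0.787 and -0.548. Neither gene was called by edgeR in either case. In these 2 fits the lone tDNA-less library was assumed to vary like the wild type, and the calls over all reading frames went down to 21 and 30. The fitted size moved less, and over the 4 fits that each left out a library the fall was 1.62-fold to 1.8-fold for MET6 and 1.4-fold to 1.59-fold for MET17. On the log2(TPM + 1) scale limma called MET6 (adjusted p = 0.0329) and not MET17 (adjusted p = 0.0943), and with no filter on that scale it called neither (adjusted p = 0.142 and 0.226). The share of the 4 reading frames with most counts was 39.56% and 30.63% in wild type and 45.09% and 36.07% in the tDNA-less strain. With them left out the log2 fold changes were -0.77 for MET6 and -0.58 for MET17.

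**Figure D3:**
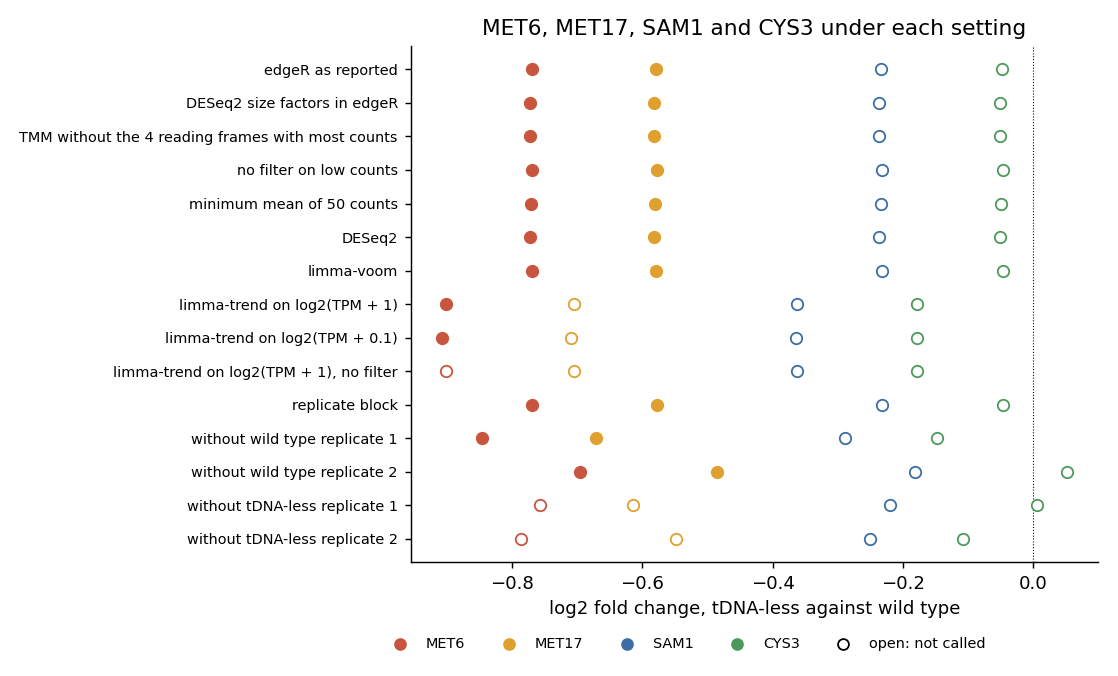
Log2 fold change (x axis, tDNA-less against wild type) of MET6, MET17, SAM1 and CYS3 under the reported test and 14 alternatives (y axis), filled where the gene was called at an adjusted p under 0.05. MET6 lay between -0.908 and -0.696 and MET17 between -0.71 and -0.486 under all of the alternatives, and both are open when either tDNA-less library is left out. The values -0.908 and -0.71 came from limma on log2(TPM + 0.1), where the median of all reading frames was -0.122.

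Of the transsulfuration genes 0 of 3 passed, and CYS4 and CYS3 had the smallest fitted differences after MMP1. CYS4 encodes cystathionine beta-synthase, which commits homocysteine to cysteine. It had 662.7 and 624.8 CPM in wild type and 628 and 592.8 CPM in the tDNA-less strain, and the groups overlapped. The log2 fold change of CYS4 was -0.08, with a 95% interval from -0.26 to 0.10 (edgeR, adjusted p = 0.778). CYS3 had 688.5 and 787.5 CPM in wild type and 684.9 and 743.3 CPM in the tDNA-less strain, again with overlap. Its log2 fold change was -0.05, with a 95% interval from -0.26 to 0.16 (edgeR, adjusted p = 0.9), and it became positive without wild-type replicate 2 or without tDNA-less replicate 1. These intervals did not reach the value of MET17 or MET6, though the difference between genes was not itself tested.

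STR3 encodes cystathionine beta-lyase, which runs the other way, from cystathionine to homocysteine. It was the lowest of the 10 and had only 38 and 129 estimated counts in wild type and 30 and 26 in the tDNA-less strain. In CPM these were 3.081 and 5.773 against 2.644 and 1.763, with no overlap but a wide gap between the wild-type libraries. The fitted difference of STR3 was the largest of the 10 in size and the least precise, a log2 fold change of -1.05 with a 95% interval from -1.96 to -0.14, and it did not pass (edgeR, unadjusted p = 0.0285, adjusted p = 0.326). It ranged from -1.41 without wild-type replicate 1 to -0.497 without wild-type replicate 2.

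SAM1 and SAM2 encode the SAM synthetases, near-identical enzymes that join methionine to ATP. SAM1 had 453.8 and 486.7 CPM in wild type and 395.5 and 405 CPM in the tDNA-less strain. SAM2 had 198.3 and 220.3 CPM in wild type and 183.8 and 184.7 CPM in the tDNA-less strain. In both genes the tDNA-less libraries lay below the wild-type libraries by a small step. The log2 fold changes were -0.23 ± 0.08 for SAM1 and -0.18 ± 0.08 for SAM2 (SE), and neither passed (edgeR, unadjusted p = 0.0149 and 0.0497, adjusted p = 0.248 and 0.421). The ratio of SAM1 to SAM2 in TPM was 2.3 and 2.22 in wild type and 2.17 and 2.21 in the tDNA-less strain, so the pair kept nearly the same proportion in all 4 libraries.

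The coding sequences of SAM1 and SAM2 are 82.8% identical and their translated products 91.7%, and 58 of the 1119 words of 31 bases in SAM1 (5.18%) also occur in SAM2. The other 8 genes share no such word with another reading frame found in the reference. The estimated counts of both SAM genes were whole in every library. Summed to 1 row, the SAM genes had 652.1 and 707 CPM in wild type and 579.2 and 589.6 CPM in the tDNA-less strain, and their log2 fold change was -0.22 ± 0.08 (adjusted p = 0.299 in edgeR).

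Neither permease passed the test. MUP1, the high-affinity methionine permease, had 102.4 and 112.1 CPM in wild type and 120.9 and 119.2 CPM in the tDNA-less strain. It was the only gene of the 10 with both tDNA-less libraries above both wild-type libraries, and it did not pass, with a log2 fold change of 0.16 and a 95% interval from -0.02 to 0.35 (edgeR, adjusted p = 0.487). MMP1, which takes up S-methylmethionine, had 23.03 and 27.88 CPM in wild type and 26.88 and 24.54 CPM in the tDNA-less strain. Its groups overlapped, and the log2 fold change of 0.003 had a 95% interval from -0.29 to 0.30 (edgeR, adjusted p = 0.996).

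**Figure D4:**
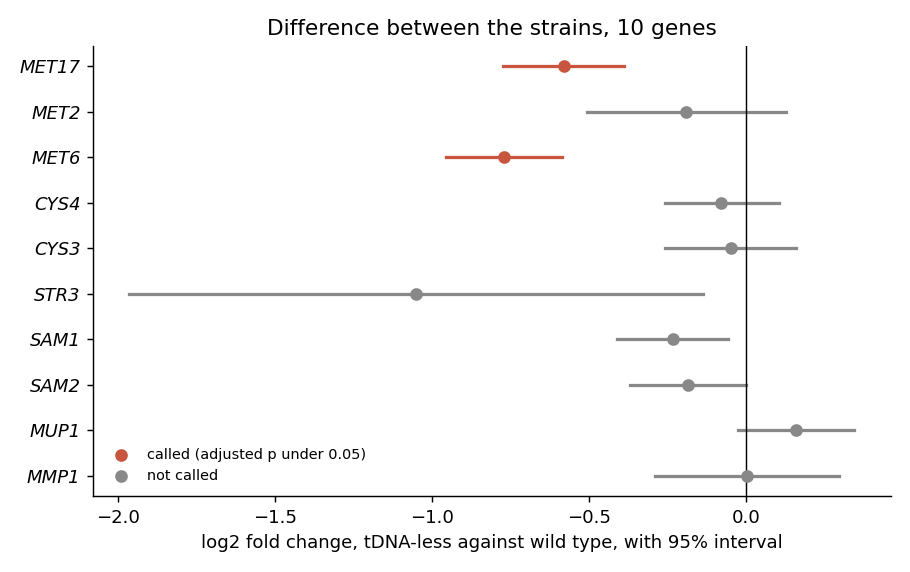
Log2 fold change of each of the 10 genes (x axis, tDNA-less against wild type, point) with its 95% interval (line) from edgeR, called genes in red and others in grey. MET6 at -0.77 and MET17 at -0.58 are the called genes, STR3 at -1.05 has the widest interval, and CYS4, CYS3 and MMP1 lie near 0.

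The rest of the sulfur amino acid pathway was described from lists of 43 further genes. Of these, 4 fell, 0 rose and 39 did not pass, where 0.693% of all reading frames were called lower and 0.806% higher. A negative log2 fold change was fitted for 32 of the 43, against 49.4% of all reading frames, and the median was -0.13 against 0.003. By DESeq2 6 of the 43 were called and by limma-voom 4, while 12 stood lower and 1 higher at an unadjusted p under 0.05 in edgeR, where 5.64% of all reading frames stood lower and 6.19% higher. The genes that passed were MET13, from the steps that feed MET6, and MET3, MET5 and MET14, from the steps that feed MET17. The lists were written with earlier results of these data known, and MET3 and MET5 were among those results.

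MET13 encodes a methylenetetrahydrofolate reductase, which makes the methyl donor that MET6 uses. It had 44.68 and 48.78 CPM in wild type and 30.49 and 32.07 CPM in the tDNA-less strain, with no overlap. MET13 fell 1.5-fold, or by 0.58 ± 0.10 on the log2 scale (SE; adjusted p = 0.0202 in edgeR). The call was lost without wild-type replicate 2 (adjusted p = 0.0987), without tDNA-less replicate 1 (0.324), without tDNA-less replicate 2 (0.225) and in limma on log2(TPM + 1) (0.145), log2(TPM + 0.1) (0.152) and log2(TPM + 1) with no filter (0.291). In the list of the methyl cycle and folate, 1 of 7 genes fell, 0 rose and 6 did not pass. SAH1, which returns the product of SAM to homocysteine, had a log2 fold change of -0.08, ADO1, adenosine kinase, -0.14, and MHT1, the methyltransferase that uses S-methylmethionine, -0.27. SAH1 was named after its value was seen.

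Upstream of MET17, 3 of 10 genes of sulfate uptake and assimilation fell, 0 rose and 7 did not pass, with a median log2 fold change of -0.54. MET14, the kinase of adenylyl sulfate, had 27.49 and 35.13 CPM in wild type and 15.69 and 16.95 CPM in the tDNA-less strain. It fell 1.93-fold (log2 fold change -0.95 ± 0.14, edgeR, adjusted p = 0.0104), a call lost without wild-type replicate 2 (0.0671), tDNA-less replicate 1 (0.242) or tDNA-less replicate 2 (0.162). MET3, ATP sulfurylase, fell 2.24-fold and MET5, a sulfite reductase subunit, 1.97-fold (edgeR, adjusted p = 0.000915 and 0.00042). On log2(TPM + 1) with no filter limma called none of these 3 genes, with an adjusted p of 0.0549 for MET3, 0.103 for MET5 and 0.179 for MET14. MET10, the other sulfite reductase subunit, and SUL2, a sulfate permease, had log2 fold changes of -0.57 and -0.65 and did not pass (edgeR, adjusted p = 0.0673 and 0.159). In edgeR 6 of the 10 genes of this list stood lower at an unadjusted p under 0.05, against 5.64% of all reading frames. DESeq2 called 4 of the 10 and limma-voom 3, against 1.89% and 1.56% of all reading frames.

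In the homoserine branch, which supplies the carbon chain to MET2, 0 of 4 genes were called by edgeR or limma-voom, 1 by DESeq2, and 1 stood at an unadjusted p under 0.05. Over all reading frames tested, 11.8% stood at an unadjusted p under 0.05 in edgeR. The shares called by edgeR, limma-voom and DESeq2 were 1.5%, 1.56% and 1.89%. HOM2, aspartate semialdehyde dehydrogenase, had 407.5 and 471 CPM in wild type and 324.9 and 337.8 CPM in the tDNA-less strain (log2 fold change -0.41, edgeR adjusted p = 0.07), and THR1, homoserine kinase, which draws homoserine to threonine, had a log2 fold change of -0.13. In methionine salvage, which rebuilds methionine from the remains of SAM used for polyamines, none of the 3 tools (edgeR, limma-voom, DESeq2) called any of 7 genes, of which 2 had an unadjusted p under 0.05 in edgeR. MEU1 and UTR4 of that route had log2 fold changes of -0.34 and -0.37. Of the other transsulfuration genes, STR2 and IRC7, 0 were called by any of the 3 tools and 1 stood at an unadjusted p under 0.05, with log2 fold changes of -0.03 and -0.31.

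Glutathione synthesis, a main use of cysteine, and the other transporters had 0 called genes among 3 and 4 with any of the 3 tools, and 0 whose unadjusted p in edgeR was under 0.05. That unadjusted threshold was met by 11.8% of all reading frames tested. GSH1, gamma-glutamylcysteine synthetase, had 92.68 and 90.05 CPM in wild type and 102.3 and 103.2 CPM in the tDNA-less strain (log2 fold change 0.17, edgeR adjusted p = 0.429). ECM38, which breaks glutathione down, had a log2 fold change of 0.06. SAM3, the SAM permease, had one of 0.04 and PET8, the mitochondrial SAM carrier, one of -0.13.

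None of the 6 regulators of the pathway was called by any of the 3 tools, with 1 lower and 1 higher at an unadjusted p under 0.05 in edgeR. Of all reading frames tested, 5.64% stood lower and 6.19% higher at that threshold. CBF1 had 52.79 and 46.05 CPM in wild type and 60.63 and 62.78 CPM in the tDNA-less strain, which is 0.33 ± 0.10 on the log2 scale (SE; adjusted p = 0.186 in edgeR). MET30 had a log2 fold change of -0.11. MET4 and MET28, a cofactor of Met4, were named after their values were seen. MET4 had 78.25 and 99.58 CPM against 90.95 and 87.73 CPM, with overlap. MET28 had 4.946 and 5.773 CPM in wild type and 2.203 and 3.186 CPM in the tDNA-less strain, without overlap (log2 fold change -0.98 ± 0.32, edgeR adjusted p = 0.229).

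**Figure D5:**
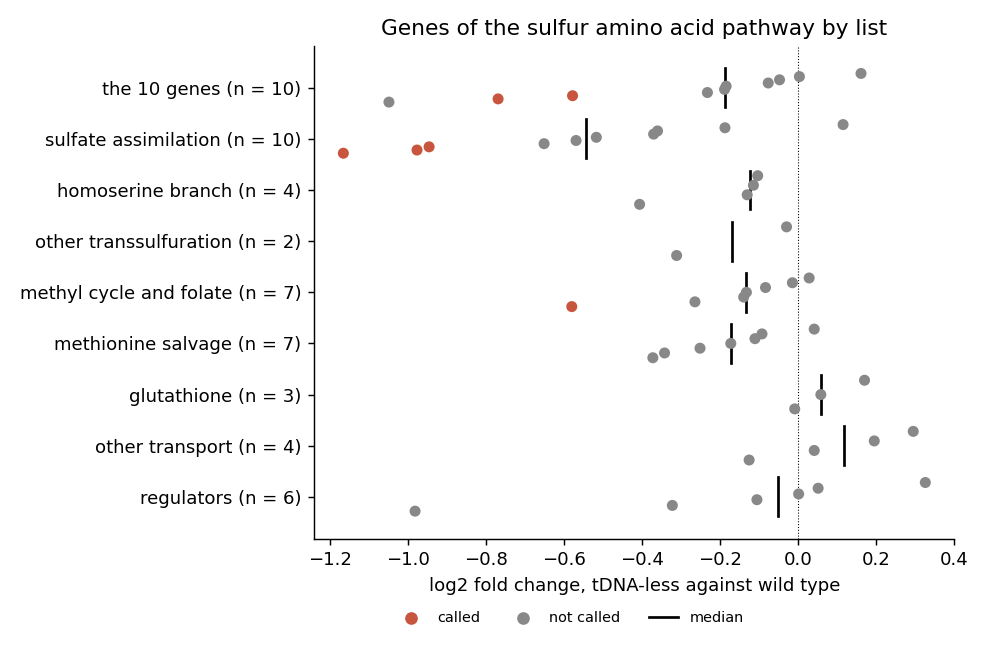
Log2 fold change (x axis, tDNA-less against wild type) of the 10 genes and of 43 further genes of the pathway in 8 lists (y axis), 1 point per gene, called genes in red, with a bar at the median of each list. The median of the sulfate assimilation list is -0.54 and that of the 10 genes -0.19, and the called genes outside the 10 are MET3, MET5, MET14 and MET13.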

How the data were processed

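Total RNA was isolated with a Qiagen column kit and made into directional libraries by a commercial service, per the labels' protocols. Each deposited table gives estimated counts and TPM for the reading frames. Per the submitters' processing notes kallisto and sleuth were used with build sacCer3, and the sources used here give neither a version nor a strand setting. The authors' estimated counts divide reads between similar reading frames, and 17.3% to 17.5% of them were not whole in each library. The deposited TPM values were reproduced from counts and effective lengths to within 0.001%. All deposited reading frame lengths are multiples of 3, so they are coding lengths. Names, positions and sequences came from RefSeq's R64 assembly (sacCer3), where 6010 of the 6706 reading frames were found.

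Counts were rounded, filtered with filterByExpr (minimum count 10), scaled by TMM and tested with edgeR 4.0.16 in R 4.3.3, with Benjamini-Hochberg adjustment over 6205 reading frames and a threshold of 0.05. Intervals are 95% intervals of the fitted log2 fold change. The biological coefficient of variation was 9.8%. Libraries of a strain differed beyond counting noise (chi-square per degree of freedom 62.6 and 46.1), so they were kept apart. The test was also run on simulated data, but the outcome is not given here and is not used as support for the calls. DESeq2 1.42.0, limma 3.58.1 and the settings given at the end were alternatives. The 10 genes, the lists and the motifs were chosen with earlier results of these data known. The text names all 10 genes, and of each further list the called genes and the 2 largest fitted differences at a mean log2 CPM of at least 3, with HIS3 and LEU2. Upstream sequence was taken from the genome, with 500 bases added to the planned window of 250 before and 50 after the start. Protein sequences were not used here, apart from an identity computed from translated coding sequence.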

Additional observations from a re-analysis of the deposited data

How the results depend on the processing

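Of 140 refits of the 10 genes (14 alternatives each), 122 kept the direction and the side of the threshold, 8 lost the call (MET17 in 5, MET6 in 3), 0 gained one and 10 changed sign (MMP1 in 8, CYS3 in 2). The number of the 10 genes called stayed at 2 with DESeq2's size factors, without the 4 reading frames with most counts, with no filter, with a minimum mean of 50 counts, in DESeq2, in limma-voom and with the replicate block. It was 1 on log2(TPM + 1) and on log2(TPM + 0.1), and 0 on log2(TPM + 1) with no filter, where over all reading frames 52, 39 and 15 were called against 93. When a library was left out it ranged from 0 to 2, and the calls over all reading frames from 21 to 91. TPM was not rescaled between libraries, and the median of all reading frames stood at -0.11 on log2(TPM + 1), where that of the 10 genes was -0.30.

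With the replicate number as a block, 282 reading frames were called, and the 10 genes kept their calls. Deviations of same-numbered libraries correlated at 0.241 over reading frames, and the labels tie no number to a shared batch, so the numbers were not taken as pairs.

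MMP1, at 0.003, changed sign with DESeq2's size factors (-0.000305), without the 4 reading frames (-0.000676), in limma-voom (-0.0182) and on log2(TPM + 1), log2(TPM + 0.1) and log2(TPM + 1) with no filter (-0.11, -0.118 and -0.11), and ranged from -0.126 to 0.156 when a library was left out. CYS3 ranged from -0.148 to 0.0526 when a library was left out. STR3 rested on 26 to 129 estimated counts per library, and its SE of 0.406 on the log2 scale was the largest of the 10.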
